A study of Mus musculus with 8 samples.

Results

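The probes described here were designed for intergenic transcripts, and their signal in total RNA was detected in embryonic stem (ES) cells and no longer once the cells had become neural. The array printed 16181 probes for regions known only by a stretch of chromosome and a strand, F for the forward and R for the reverse strand. A probe was selected on 2 measured values: the scanner's flag called it well above background on the total RNA array of ES cells, and did not on the total RNA array of the last stage. Of 7412 regional probes seen in ES cells, 1518 met this rule, or 20.5%, and they are called the lost probes below. They came from 994 region strands of 878 regions, so that many shared a transcript and some overlapped in sequence, and they are not independent of each other. The rule was applied to the same values that show the fall, and the fall is therefore given as a description.

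The cells were of the mouse ES line E14Tg2A, strain 129/Ola, and all values come from that line alone. ES cells were grown with serum and leukemia inhibitory factor (LIF) and taken at 0 days in vitro. Epiblast-like aggregates (ELA) were taken after 2 days of floating culture in chemically defined medium with N2 and B27. Neural progenitor cells (NPC) were taken on day 6, after dissociation and growth on poly-ornithine and laminin, and NPC/neurons (NPC/Neu) on day 10, after a second dissociation and growth without B27. At each stage 1 array measured total RNA and 1 measured Ago–RNA, the RNA recovered with the anti-pan Ago antibody 2A8 from cytoplasmic complexes. Each array held RNA pooled from 3 independent experiments, so no condition had a replicate, no test between stages could be made, and every value below is a description of 8 arrays.

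Long intergenic RNAs are transcribed like messenger RNAs, often from a promoter that is active in few cell types, and many stay in the nucleus. Argonaute proteins carry microRNAs (miRNAs), whose seed pairs with target RNAs in the cytoplasm. An RNA that is enriched in an Ago immunoprecipitate over total RNA was recovered together with Ago, whereas RNA that stays in the nucleus is usually poor in that fraction. Ago enrichment is given as log2 of Ago–RNA minus log2 of total RNA, so that 0 means equal normalized signals.

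The probes of the 10 regions with the largest fall are shown first, since the account of single transcripts turns on them. Each is the 60-base sense sequence as deposited, with the place of the probe in mouse genome build mm9. Capitals mark the bases at which the closest other copy in the genome differed, and a sequence without capitals either had 1 place in the genome or, for regions 1 and 6, had another copy on chromosome 13 with 0 differences.
Region 1, chr13:65750696-65750755, F strand: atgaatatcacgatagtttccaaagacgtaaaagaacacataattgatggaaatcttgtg
Region 2, chr13:62376772-62376831, F strand: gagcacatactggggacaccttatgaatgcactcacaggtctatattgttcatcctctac
Region 3, chr6:4843656-4843715, R strand: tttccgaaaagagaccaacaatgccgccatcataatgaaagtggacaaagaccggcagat
Region 4, chrX:135882090-135882149, R strand: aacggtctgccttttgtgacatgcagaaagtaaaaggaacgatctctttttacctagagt
Region 5, chr13:31775719-31775778, F strand: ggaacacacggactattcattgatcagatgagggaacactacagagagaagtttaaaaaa
Region 6, chr13:66381593-66381652, R strand: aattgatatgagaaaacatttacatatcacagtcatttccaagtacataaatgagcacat
Region 7, chr16:8756904-8756963, R strand: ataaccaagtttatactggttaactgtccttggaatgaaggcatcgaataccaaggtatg
Region 8, chr4:146892846-146892905, F strand: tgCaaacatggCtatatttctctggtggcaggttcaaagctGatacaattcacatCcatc
Region 9, chr13:62376831-62376890, F strand: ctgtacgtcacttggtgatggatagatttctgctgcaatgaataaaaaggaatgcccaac
Region 10, chr16:8756909-8756968, R strand: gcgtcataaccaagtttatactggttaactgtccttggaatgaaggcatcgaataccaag
The probes of regions 7 and 10 share 55 bases, and the probe of region 9 lies inside region 2, so that the 10 probes stand for 8 separate loci.

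The mature miRNAs of 1 further region, described last among the single regions, are printed because all 7 of its probes were lost and because its host RNA is a precursor of molecules that Ago binds. Their sequences are those of RefSeq, GRCm38.p6, with the seed (bases 2 to 8) in capitals.
mmu-miR-106a-5p: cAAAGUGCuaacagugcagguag
mmu-miR-20b-5p: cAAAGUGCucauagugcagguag
mmu-miR-18b-5p: uAAGGUGCaucuagugcuguuag
mmu-miR-19b-3p: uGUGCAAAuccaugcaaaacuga
mmu-miR-92a-3p: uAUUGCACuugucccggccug
mmu-miR-363-3p: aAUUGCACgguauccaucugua
miR-106a and miR-20b share a seed, and so do miR-92a and miR-363.

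From the first to the last stage most marker genes moved as the labels of ES cells and NPC/Neu imply. These changes do not check the labels of ELA and NPC. All 10 naive pluripotency genes on the list fell at least 2-fold in total RNA from ES to NPC/Neu, with a median log2 change of -4.90. Of 6 core pluripotency genes 5 fell, Pou5f1 from 15.21 to 8.31, whereas Sox2 changed by 0.12. Of 5 primed epiblast genes 3 fell and 1, Eomes, rose. All 7 neural progenitor genes rose, with a median change of 4.92, and all 6 measured neuron genes rose, whereas 2 of 8 mesendoderm and extraembryonic genes rose. In ES cells 9 measured nuclear RNAs had a median Ago enrichment of -1.76 and naive pluripotency genes 0.55. Fewer regional probes were well above background in ELA total RNA (37.0%) than in the other total RNA arrays (43.5% to 45.8%). In bulk samples fewer cells that make a transcript and less transcript per cell cannot be told apart.

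Intergenic probes were lost more often than other probes, but at equal dim signal the shares were close. Of the 25822 other probes seen in ES cells, 9.53% were lost, against the 20.5% of regional probes. Among probes with a log2 ES signal of 6 to 7, however, 52.3% of the regional and 50.5% of the other probes were lost, and at 7.5 to 8 the shares were 17.7% and 17.0%. The shares parted among bright probes. At 9 to 10, 9.64% of the regional and 6.20% of the other probes were lost, and at 10 to 14, 4.72% and 1.70%. The bright lost probes were few, 72 and 52 in these last groups.

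**Figure D1:**
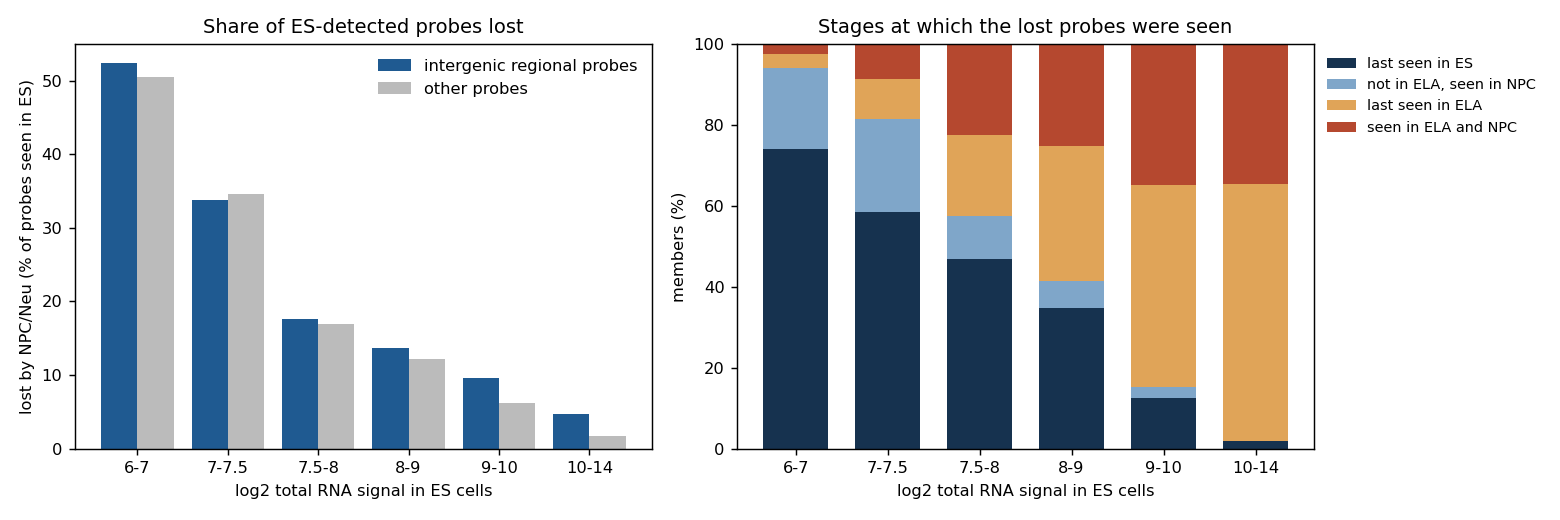
Left, share of the probes seen in ES cells that were lost by NPC/Neu (%), for regional and other probes, against the log2 total RNA signal in ES cells. Right, lost regional probes (%) by the stages at which they were seen, over the same signal groups: the share not seen again after ES shrank with signal, from most of the dim probes to 1.92% or less of the 52 brightest.

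For most of the lost probes only a small fall could be measured, since they started close to background. Over the 4 stages the median log2 total RNA signal was 7.28, 6.97, 6.81 and 6.72, and the lowest signal well above background on the last array was 6.79. Since the last value lay within background, each fall has only a lower bound, taken against the higher of that limit and the probe's own signal. The bound had a median of 0.44 on the log2 scale, or 1.36-fold, over the 1510 probes with a usable spot, and the largest was 5.24, or at least 37.8-fold. It reached 2-fold for 395 probes (26.2%), 4-fold for 144 (9.54%), 8-fold for 56 (3.71%) and 16-fold for 21 (1.39%). Among other lost probes 34.3% reached 2-fold. For comparison, repeated spots of a probe on an array gave a change from ES to NPC/Neu an SD of 0.15, or 0.20 for dim probes, which is technical spread within arrays and not the spread between cultures.

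The rule had a sharp edge in dim signal. On the NPC/Neu array, the background-subtracted signals just inside the rule were 52.0408 (chr12:70637975-70638314, R) and 52.0323 (chr6:90745692-90777977, F), and just outside 52.1464 (chr13:62701350-62715650, F) and 52.1535 (chr8:105742425-105852975, F). On the ES array, 37.2864 (chr5:113920850-113950200, F) and 37.3247 (chr7:28778209-28800409, F) lay just inside, and 37.2729 (chr3:65460193-65460769, R) and 37.2652 (chr15:41486232-41499767, R) just outside. These pairs differed by far less than the spread between repeated spots.

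By the flag, detection was most often lost at the first step. The rule itself required detection in ES cells, so the value that begins this step was a selected one. A dim probe that just passed in ES cells could drop out on the next array without a real fall, and the share is a description. Of the 1518 probes, 784 (51.6%, 95% Wilson interval 49.1 to 54.2 for counting error) were not well above background in ELA and did not return, 267 (17.6%) were last seen in ELA, and 216 (14.2%) were seen in both ELA and NPC. A further 251 (16.5%) were missing in ELA and present again in NPC. In all, 68.2% were not seen in ELA, beside 57% of the other lost probes. The ELA array itself missed more dim probes: of regional probes seen at the other 3 stages, 13.9% were not seen in ELA, and of other probes 4.39%. The part of this lower detection in the timing was not tested.

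The timing differed between dim and bright probes. The probes not seen again after ES had a median ES signal of 7.18, those last seen in ELA 8.10, and those seen in both ELA and NPC 7.87. Of the 201 dimmest, with a signal of 6 to 7, 94.0% were missing in ELA, against 15.3% at 9 to 10 and 1.92% at 10 to 14. At 10 to 14, 63.5% were last seen in ELA. Among the 395 probes that fell at least 2-fold, 157 (39.7%) were last seen in ELA, 113 (28.6%) in ES and 106 (26.8%) were seen in both ELA and NPC, and 19 (4.81%) were missing in ELA alone.

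By size the ES–ELA step came first, again from the ES value that the rule used. The order of the steps was not the same as by detection. By detection 17.6% of the lost probes were last seen in ELA and 30.8% in NPC. Those that fell at least 2-fold were most often last seen in ELA. Over all lost probes the median log2 change in total RNA was -0.38 at the ES–ELA step (quartiles -0.80 and -0.10), -0.15 at the ELA–NPC step and -0.08 at the last step, while over all probes of the array it was 0.00, -0.01 and -0.02. Among the 395 with a fall of at least 2-fold the medians were -1.09, -0.77 and -0.10. The last step thus had the smallest median change in both sets, and the medians of the dim probes lay near background from ELA onward.

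**Figure D2:**
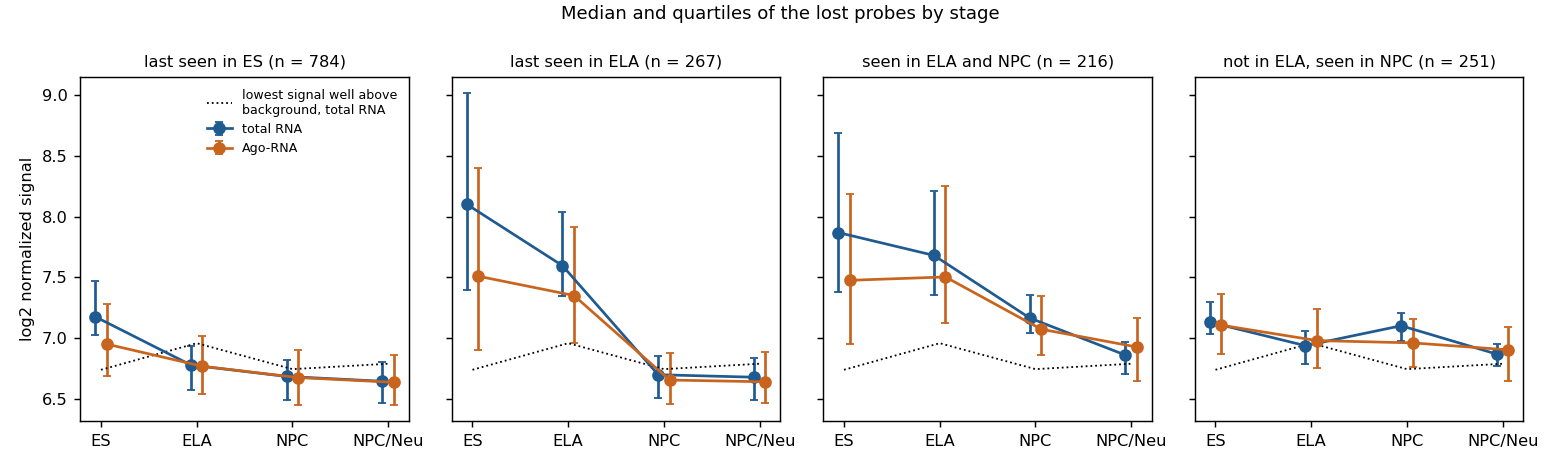
Median and quartiles of log2 normalized signal at the 4 stages for total RNA and Ago–RNA, in 4 panels by the stages at which the lost probes were seen. The dotted line is the lowest signal that was well above background on each total RNA array, and the 784 probes last seen in ES start only a little above it, with a median of 7.18.

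The lost probes were divided almost evenly between the strands. There were 727 on F and 791 on R, or 47.9% on F (interval 45.4 to 50.4), beside 48.1% of all regional probes seen in ES cells and 50.5% of all regional probes printed. Among those with a fall of at least 2-fold, 166 were on F and 229 on R, or 42.0% on F (37.3 to 46.9). These intervals take probes as independent, which probes of a shared region are not, and with each of the 994 region strands counted once 50.5% were on F.

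In most regions printed on both strands, the lost probes lay on 1 strand only. Of 444 regions with lost probes that were printed on both strands, 116 had lost probes on both. In the other 328, the opposite strand had a probe seen in both ES and NPC/Neu in 253, and no probe seen in ES cells in 75. For scale, 20.5% of all regional probes seen in ES cells were lost. Of the 994 region strands with lost probes, 545 themselves also kept a probe. These counts therefore do not show a loss particular to 1 strand. Where both strands were lost, their brightest ES signals differed by a median of 0.62 on the log2 scale, and by at least 2-fold in 46 of 116 regions.

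A lost probe did not mean that its whole region was lost. In 449 of the 994 region strands every probe seen in ES cells was lost, and in 545 at least 1 other probe was still seen in NPC/Neu. In 317 of the 449 only 1 probe had been seen. Of 142 region strands with 3 or more lost probes, 68 lost every probe, and the most probes lost in any was 8, from chr10:94900849-94928059 on R, where 10 had been seen. That region strand was chosen after its values were seen.

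Part of the lost probes lay in or opposite annotated genes, much as regional probes of the array did in general. On the GENCODE annotation of mm9, 919 (60.5%) lay outside every annotated gene, 169 (11.1%) in an intron and 135 (8.89%) in an exon on the same strand, and 170 (11.2%) and 110 (7.25%) opposite an exon and an intron. Over all 16181 regional probes these shares were, in the same order, 58.0%, 11.0%, 10.5%, 11.1% and 8.63%. Of the 135 lost probes in exons, 57 lay in protein-coding genes, 49 in lincRNAs, 18 in processed transcripts, 6 in miRNA genes and 5 in pseudogenes. Of these, 23 of the 49 in lincRNAs fell at least 2-fold, and 15 of the 57 in coding genes. The probe had at most 1 place in the genome for 1288 (84.8%) and more than 10 for 37 (2.44%), which cannot be assigned to 1 locus. Over all regional probes these shares were 88.3% and 2.05%.

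The regions of lost probes lay farther from coding genes than those of retained ones. Distance was taken from the edge of the region and not from the probe, so lost and retained probes of a region share it. Counted per probe, the median distance to the nearest coding gene on the array was 8.07 kb for the lost probes. It was 14.9 kb for those with a fall of at least 2-fold, and 2.11 kb for the 4935 regional probes seen at all 4 stages. Of 368 coding genes measured within 10 kb, 27.7% fell at least 2-fold from ES to NPC/Neu and 14.4% rose. Near probes with a fall of at least 2-fold, 34 of 81 genes (42.0%) fell and 10 (12.3%) rose, whereas near probes seen at all stages 19.7% fell and 20.6% rose. Over all 22989 genes measured, 16.6% went each way. How far probes that read the overlapping gene itself account for the shared falls was not tested.

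The 10 regions with the largest fall were bright in ES cells, between 11.12 and 12.03 in log2 total RNA, and all were still seen in ELA. Their median change was -1.63 from ES to ELA and -3.02 from ELA to NPC. In NPC 6 of the 10 were seen. On the Ago arrays 6 of the 10 were still seen in NPC/Neu, although none was in total RNA. Only in regions 5 and 8 were all probes seen in ES cells lost, 2 of 2 and 4 of 4.

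**Figure D3:**
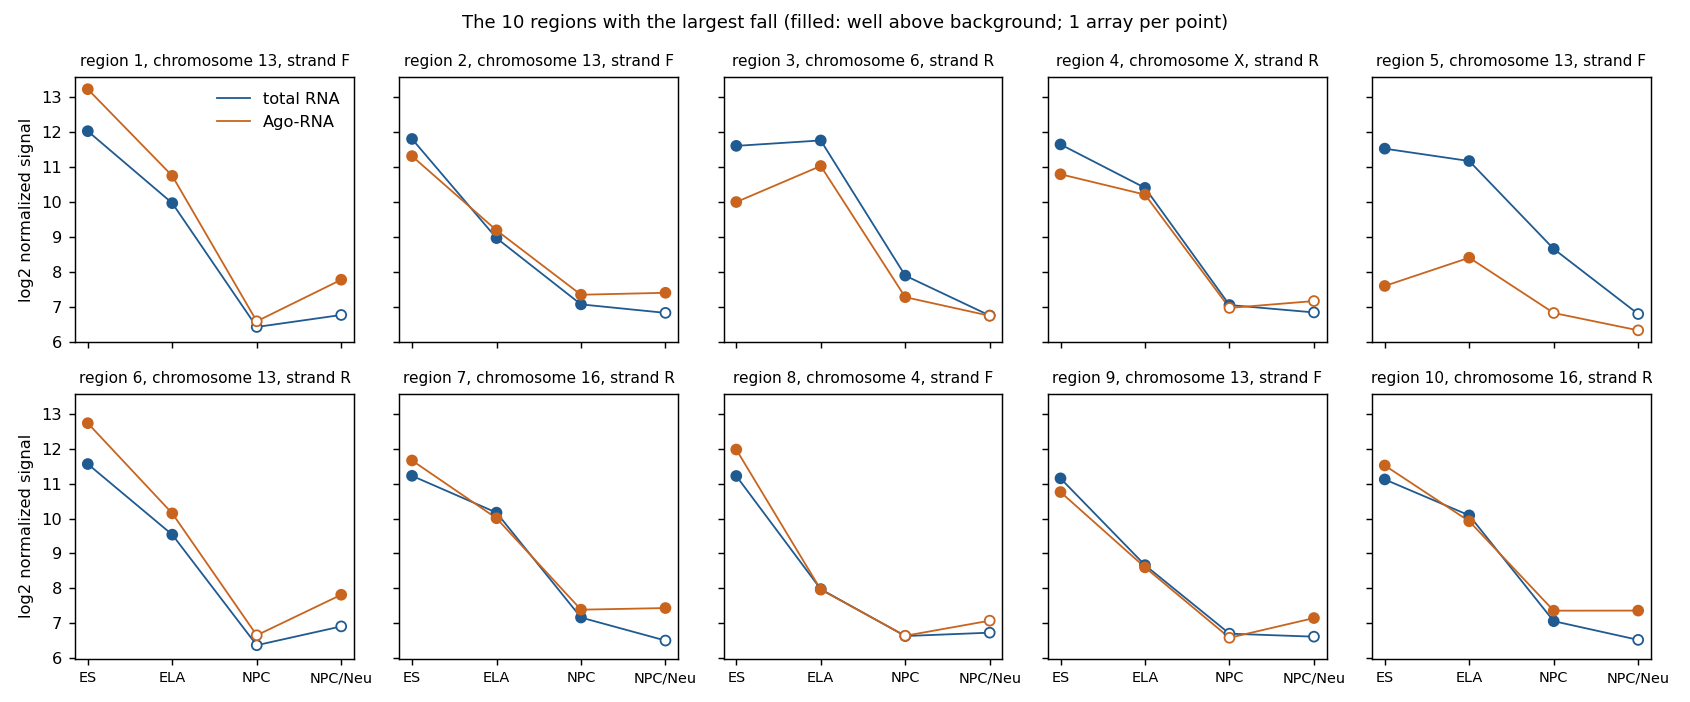
Log2 normalized signal of 1 probe for each of the 10 regions at the 4 stages, total RNA in blue and Ago–RNA in orange, with filled points well above background and 1 array per point. Ago–RNA lies above total RNA in ES cells in 5 panels and below it in 5 (region 9, at -0.39, turned to 0.03 with each fraction normalized by itself), farthest below in region 5 (-3.93).

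Regions 1, 2, 6 and 9 lay in a stretch of chromosome 13 rich in zinc finger genes, a family of DNA-binding repressors that has many near-identical members. Region 1 (chr13:65716675-65765575, F) had 12.03, 9.97, 6.42 and 6.77 in total RNA and 13.23, 10.75, 6.59 and 7.78 in Ago–RNA, in the order ES, ELA, NPC and NPC/Neu. It thus fell at least 37.8-fold in total RNA, its Ago enrichment in ES cells was 1.20, and it was seen again on the last Ago array. Region 6 (chr13:66381200-66410200, R) was alike, with 11.56, 9.54, 6.37 and 6.91 in total RNA, 12.73, 10.15, 6.66 and 7.82 in Ago–RNA and an Ago enrichment of 1.17. The probe of region 1 has 3 places and that of region 6 has 9, so their signal may come from several copies.
Region 2 (chr13:62364360-62381775, F) has 1 place and gave 11.81, 8.97, 7.07 and 6.83 in total RNA and 11.32, 9.19, 7.35 and 7.40 in Ago–RNA. The probe of region 9 (chr13:62376235-62376890, F), inside it, gave 11.15, 8.66, 6.70 and 6.61, and 10.76, 8.60, 6.58 and 7.15. Ago enrichment in ES cells was -0.49 and -0.39, the second turning to 0.03 when each fraction was quantile-normalized by itself.

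Region 8 (chr4:146889650-146904300, F) lay in a similar stretch of chromosome 4, 2.06 kb from Gm13152, whose own total RNA changed by -5.49. Its total RNA was 11.22, 7.98, 6.63 and 6.73, the steepest ES–ELA step of the 10, and its Ago–RNA was 11.98, 7.96, 6.64 and 7.07. In fixed windows of 3 Mb with at least 30 regional probes seen in ES cells, ranked by the share lost, chr4:146000000-149000000 came first. There 35 of 44 probes were lost (79.5%), 26 of them by at least 2-fold, with a median Ago enrichment of 0.39 in ES cells over these 26, and 31 of the 35 had 2 or more places in the genome.
The next windows were both on chromosome 10, where probes had at most 1 place. In chr10:92000000-95000000, 21 of 30 were lost (70%), and in chr10:60000000-63000000, which holds Tet1, 23 of 37 (62.2%). The windows were chosen after the values were seen, and over whole chromosomes the share lost ran from 14.8% on chromosome 3 to 28.1% on chromosome 10.

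Region 3 (chr6:4841700-4847400, R), in an exon of the pseudogene Gm9835, was the 1 of the 10 that was not lower in ELA than in ES cells. Its total RNA was 11.61, 11.77, 7.89 and 6.75, and its Ago–RNA 10.00, 11.03, 7.28 and 6.74. Ago enrichment in ES cells was -1.61. The nearest coding gene, Ppp1r9a at 5.60 kb, moved the other way, from 10.30 to 11.03 in total RNA.

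Region 4 (chrX:135882029-135892277, R) was a lincRNA, C330013F16Rik, with 2 lost probes among the 5 brightest in exons. The brighter gave 11.65, 10.41, 7.05 and 6.84 in total RNA and 10.80, 10.21, 6.97 and 7.16 in Ago–RNA. The region lay 9.32 kb from Trap1a, which changed by -5.02.
Regions 7 (chr16:8738782-8830148, R) and 10 (chr16:8748982-8757165, R) lay in an exon of Usp7, a deubiquitinase gene, and their overlapping probes gave nearly the same values. In region 7 total RNA was 11.22, 10.17, 7.16 and 6.50, and Ago–RNA 11.66, 10.01, 7.39 and 7.43. Usp7 itself, by its own probe, went from 13.34 to 12.60, and 6 of the 10 probes of region 7 seen in ES cells were not lost.

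Region 5 (chr13:31736054-31781679, F), 12.8 kb from the forkhead gene Foxf2, was the member poorest in Ago–RNA. Its total RNA was 11.53, 11.18, 8.66 and 6.79, whereas its Ago–RNA was 7.60, 8.41, 6.82 and 6.33, an Ago enrichment of -3.93 in ES cells and -2.77 in ELA. The brightest lost probe on the R strand of the same region gave 10.80, 11.01, 8.22 and 6.81 in total RNA and an Ago enrichment of -2.62. The brightest lost probes of both strands were therefore kept through ELA and poor in Ago–RNA, while Foxf2 changed by 1.12. The other lost F probe was dimmer, with 7.76 in ES cells and an Ago enrichment of -0.87. On R, 3 of 6 probes seen in ES cells were lost, and the other 2 lost ones had -2.05 and -0.65. In 2 other regions with lost probes on both strands, chosen by their brightest probe, 1 strand was dim: region 6 had 11.56 on R and 7.35 on F in ES cells, and chr4:146017200-146029700 had 11.27 on F and 7.15 on R. A region on chromosome 18, chr18:3003075-3016150, chosen after its values were seen, resembled region 5, with 10.12 on F and 10.83 on R in ES total RNA and median Ago enrichments of -2.58 and -1.01.

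Ago enrichment was not used to choose the members, apart from the ES total RNA value that it contains. In ES cells it had a median of -0.25 over 1510 lost probes (quartiles -0.67 and 0.09, range -3.93 to 1.93), and it was negative in 1054 (69.8%, interval 67.4 to 72.1), beside a median of -0.02 and 51.3% negative over all probes seen in ES cells. It was -1 or lower in 213 (14.1%), against 13% of all those probes, and 1 or higher in 40 (2.65%), against 11%. The regional probes seen at all 4 stages had a median of -0.24, so a low value was shared with retained intergenic RNAs. Repeated spots gave an Ago enrichment in ES cells an SD of 0.13, or 0.17 for dim probes.

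Many of these probes were not detected on the ES Ago array. Of the 1518, 925 (60.9%) were well above background there, against 92.6% of all probes seen in ES total RNA, and the ratio of the others is only an upper bound. With Ago signals below the lowest detected one raised to it, the median was -0.23, and 173 of the 213 stayed at -1 or lower. Over the lost probes seen on both ES arrays, which are those with the higher Ago signals, the median was -0.01, with 98 at -1 or lower and 40 at 1 or higher. At an ES signal of 8 to 9, where 81.4% of the lost probes were seen in Ago–RNA, their median was -0.79, that of regional probes seen at all stages -0.25 and that of all other probes 0.14. The 395 probes with a fall of at least 2-fold had a median of -0.77, with 164 (41.5%) at -1 or lower. Their fall and this ratio share the ES total RNA value, so the 2 are not independent. The dim lost probes, at 6 to 7, had a median of -0.04.

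Position and copy number went with Ago enrichment. Lost probes in introns on the same strand had the lowest median in ES cells (-0.57, n = 168) and none at 1 or higher, those outside genes had -0.26, and those in exons on the same strand -0.14. Probes with at most 1 place had -0.29 (n = 1280) and those with more places 0.03 (n = 230). Probes of a region strand resembled each other: over 78 region strands with 3 or more lost probes seen on both ES arrays, the pooled SD within a region strand was 0.38 and the SD of their medians 0.83. Of these medians 49 were negative, 15 were -1 or lower and 4 were 1 or higher.

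**Figure D4:**
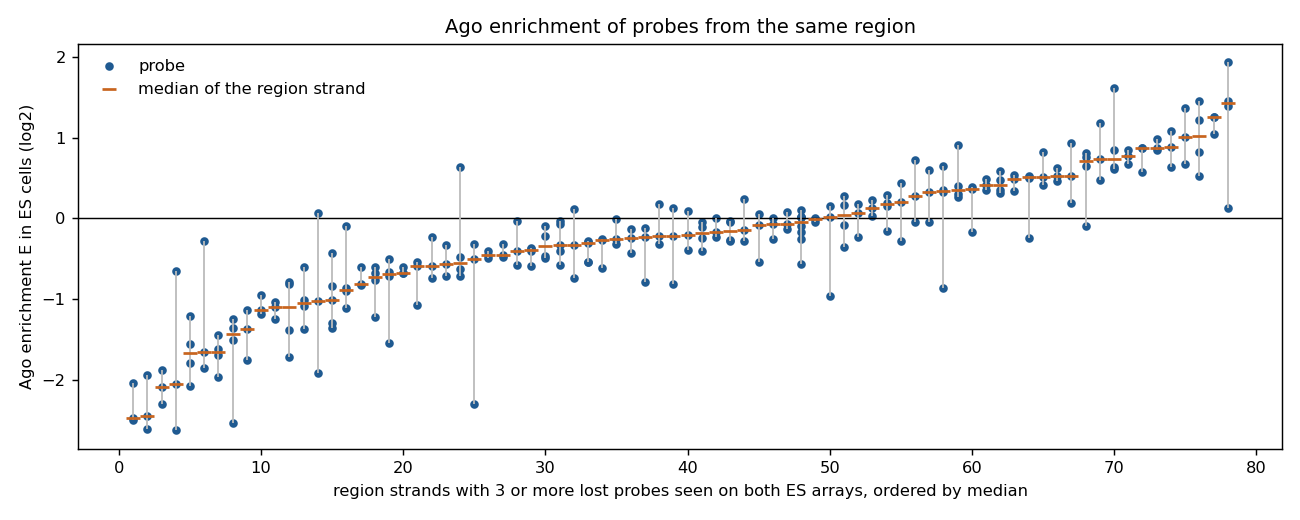
Ago enrichment in ES cells (log2 Ago–RNA minus log2 total RNA) of 268 lost probes in 78 region strands, each with 3 or more lost probes seen on both ES arrays, ordered by median. Grey lines join the lowest and the highest probe of a region strand, and these spans are short beside the range of the medians.

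The regions poorest in Ago–RNA were bright in ES total RNA. The choice forced this, since both ES arrays had to detect the probe and the lowest detected ES Ago signal was 6.73. After region 5 came chr9:40031056-40031687 on R, with 10.47, 9.79, 6.72 and 6.33 in total RNA, 7.78, 7.98, 6.31 and 6.01 in Ago–RNA and an Ago enrichment of -2.69. The overlapping region chr9:40029344-40050160 on R had -2.65. Of a region 91.9 kb from Sox2, chr3:34643323-34682773 on R, 1 probe had 9.74, 7.45, 6.36 and 6.35 in total RNA. Its Ago enrichment was -2.67 and its fall at least 7.75-fold, while Sox2 itself changed by 0.12. The other lost probe of this region strand had -0.69 and a fall of at least 2.42-fold, and 2 of the 4 probes seen in ES cells were lost. All 5 lowest probes were still seen in ELA total RNA and in none of them was NPC/Neu Ago–RNA detected. Chosen after its values were seen, chr2:104398943-104412968 on F lost 5 of 5 probes, and the 3 of these seen on both ES arrays had -2.30 to -1.88.

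The 5 probes richest in Ago–RNA lay in or near coding genes and had 7.00 to 8.14 in ES total RNA. Over all lost probes the median there was 7.28 and the upper quartile 7.88. Since the ratio subtracts total RNA, a lower total RNA signal itself favours a higher value. Regions 1 and 6, bright in total RNA, had 1.20 and 1.17. The highest, chr10:62262341-62269593 on F, lay opposite an exon of Tet1, which encodes a 5-methylcytosine dioxygenase. It had 7.23, 6.74 and 6.60 in total RNA from ELA onward, a fall of at least 2.31-fold from ES to NPC/Neu, 9.93, 8.23, 7.08 and 6.99 in Ago–RNA and an Ago enrichment of 1.93 in ES cells. Tet1 itself went from 13.58 to 10.61 in total RNA, also with an Ago enrichment of 1.93.
Both lost probes of chr11:119250824-119286324 on F, where 3 had been seen, in an exon of Rnf213, had 1.86 and 1.82, chr18:6144775-6202105 on R, in Kif5b, had 1.85, and chr13:74516152-74528284 on R, 2.14 kb from Zfp72, had 1.71. The Ago–RNA of the brighter Rnf213 probe was 9.18, 7.86, 7.62 and 8.39, so it was seen at all 4 stages, whereas its total RNA was seen in ES cells alone. The bounded fall of this probe in total RNA was small, at least 1.29-fold.

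Ago–RNA of the lost probes, on arrays that the rule did not use, fell 2-fold about as often as that of all probes seen in ES cells. From ES to NPC/Neu the median log2 change in Ago–RNA was -0.32, with 304 of 1515 probes (20.1%) at least 2-fold lower and 6 at least 2-fold higher. The share at least 2-fold lower was 18.3% for all probes seen in ES cells, with a median of -0.14, and 4473 of those 33161 probes were at least 2-fold higher. For the other lost probes it was 37.5%, with a median of -0.65. For the lost regional probes with a total RNA fall of at least 2-fold the median was -1.14, with 224 of 395 (56.7%) at least 2-fold lower. The number well above background was 925, 421, 219 and 176 over the 4 stages. Taken probe by probe, Ago–RNA was last seen at the same stage as total RNA in 492, earlier in 240, later in 283, and never in 503. Among the 2460 other lost probes these counts were 1130, 314, 608 and 408.

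The 176 probes (11.6%) still seen on the NPC/Neu Ago array compare with 17.4% of the other lost probes, and with 6.99% of all probes not seen in NPC/Neu total RNA, whether or not ES cells had them. Of these, 156 had also been seen on the ES Ago array and 50 had fallen at least 2-fold in total RNA. Their median Ago–RNA signal in NPC/Neu was 7.36, and in 15 it was at least 2-fold above the bound on total RNA. The brightest was chr17:3103174-3114885 on F, beside Scaf8, with Ago–RNA of 7.00, 7.10, 6.98 and 9.28 and total RNA of 7.00, 7.32, 6.93 and 7.03. It was followed by chr7:117144653-117150145 on R (8.73 in NPC/Neu Ago–RNA), chr13:114106455-114118105 on F in an exon of BC067074 (8.64), chr5:53937589-53938561 on R, 8.46 kb from the Notch effector gene Rbpj (8.42), and the Rnf213 probe (8.39). The probes on chromosomes 17, 7 and 5 had their high Ago–RNA at the last stage only, since their NPC values were 6.98, 6.99 and 6.70. Most of these named probes hardly fell in total RNA. The bounded log2 fall was -0.03 on chromosome 17, 0.08 on chromosome 7, 0.16 in BC067074 and 0.37 in Rnf213. Only the chromosome 5 probe, with 1.03, fell at least 2-fold. For the others the loss was mainly one of detection near background.

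A stage marker was the nearest coding gene of 12 lost probes in 8 region strands, beside 6 genes, with no region closer than 27.3 kb. The share among all regional probes was not counted, so this number has no comparison. The most changed was chr9:118291593-118324230 on R, 63.1 kb from Eomes, a T-box gene of the primed epiblast. Of its 6 probes seen in ES cells, 4 were lost. These 4 ran from 7.22 to 10.03 in ES total RNA. The brightest went to 9.02, 6.84 and 6.84, a bounded fall of 3.19 in log2, whereas Eomes changed by 2.73. The F strand held 1 lost probe, with 7.07 in ES cells. Besides the Sox2 region above, a second region lay 242 kb from Sox2 (chr3:34793853-34800591, F), and the rest lay near Klf4 (chr4:55465247-55494547, F), Tcl1 (chr12:106566735-106624460, R), Otx2 (chr14:49314574-49358174, F) and Pou3f1 (chr4:124202159-124202824, F), all dim with ES signals of 6.94 to 7.23.

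Of the 15 region strands with lost probes that hold a miRNA gene, 2 are described, each with 6 such genes. The region chrX:50087925-50101700 on R, chosen after its values were seen, holds the genes of miR-106a, miR-18b, miR-20b, miR-19b, miR-92a and miR-363, relatives of the growth-promoting miR-17 cluster, whose mature sequences are given above. All 7 of its probes were lost. They span 317 bases over and beside Mir363 and Mir92-2 and overlap in part, so they report on 1 stretch of RNA.
Total RNA ran from 7.83 to 9.66 over the 7 probes in ES cells, from 8.20 to 10.34 in ELA, from 6.97 to 8.87 in NPC, and at the last stage from 6.22 to 6.78. It was thus higher in ELA than in ES cells for every probe, by 0.37 to 0.78 on the log2 scale, before a fall of at least 2.05- to 7.32-fold from ES to NPC/Neu.
Ago–RNA ran from 6.34 to 7.39 in ES cells, from 7.89 to 9.72 in ELA, from 6.58 to 7.85 in NPC, and at the last stage from 5.99 to 6.69, and 2, 7, 4 and 0 of the 7 were well above background. In ES cells Ago enrichment was therefore -1.10 or lower for each, with the undetected signals raised to the lowest detected one, and in ELA it ran from -1.05 to -0.24. The ES–ELA step in Ago–RNA was at least 2.25-fold for each probe and at least 7.17-fold for the largest. Of all 1518 lost probes, 19 rose at least 2-fold in Ago–RNA at that step and were seen in ELA, and these 7 were among them. Without the bound 21 of the 1518 rose that far, beside 500 of 4935 regional probes seen at all stages. Among all probes seen in ES cells it was 3134 of 33228, so such a rise was not particular to this region. The related Mir17 region, chr14:115423660-115463160 on F, also holds 6 miRNA genes and lost 2 of 7 probes. Its brightest probe, which was kept, had 12.48, 12.82, 12.54 and 12.35 in total RNA and 11.62, 13.08, 12.70 and 11.96 in Ago–RNA, so its Ago–RNA too was highest in ELA. Its brighter lost probe went from 6.33, below detection, to 8.27 in Ago–RNA at the ES–ELA step, while its total RNA went from 7.71 to 7.45.

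**Figure D5:**
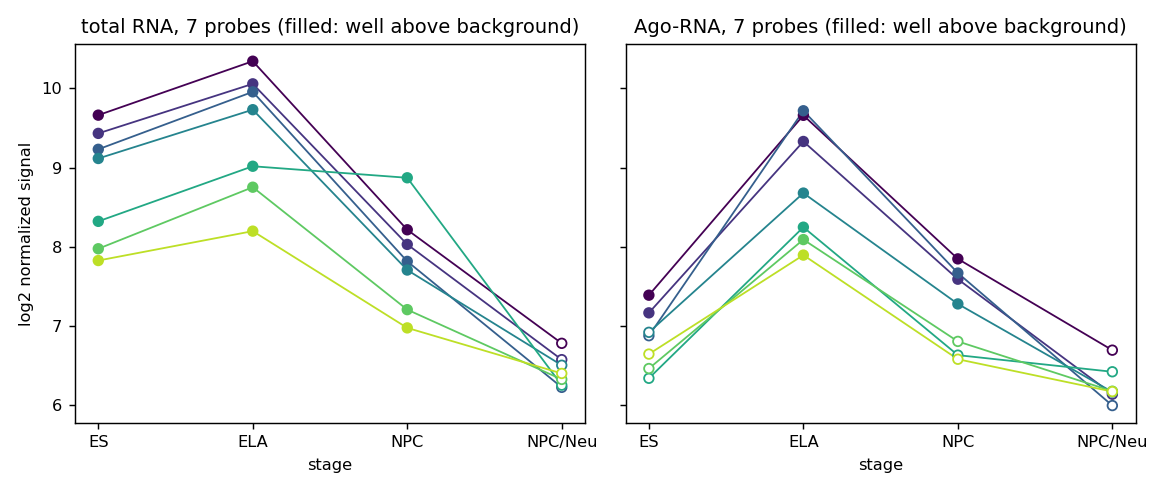
Log2 normalized signal of the 7 overlapping probes of chrX:50087925-50101700 (R) at the 4 stages, total RNA on the left and Ago–RNA on the right, with filled points well above background and 1 array per point. All 7 lines peak in ELA on the Ago–RNA side, where 2 had been well above background in ES cells and 7 were in ELA, and 6 of the 7 probes drop to under 7 only in NPC/Neu total RNA.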

How the data were processed

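Per the labels, Cy3-labelled cRNA was hybridised to 1-color Agilent arrays, and the submitters' processing notes name Agilent Feature Extraction 9.1 and limma. The authors deposited scanner files of spot intensity without normalization. Control spots and irregular spots (15 total RNA spots of members) were left out. Mean intensity was background-corrected with normexp (offset 50) and quantile-normalized over the 8 arrays in limma 3.58.1 (R 4.3.3), and spots of a probe were averaged. The well-above-background flag was taken from the files, and a probe printed more than once counted as seen where most of its spots were. Array depth has no count, and the single array per condition limits precision. Spot SDs come from 399 probes printed in 10 spots.

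Probes were placed on mm9 by the coordinates in the files and blastn 2.17.0 (at least 90% identity over 54 bases, word size 28), with the GENCODE annotation of that build. Tables were made in Python 3.11.15 with pandas 2.3.3, numpy 2.4.6 and scipy 1.17.1.

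Named regions were the 10 with the largest bounded fall, the 5 highest and 5 lowest Ago enrichments among members seen on both ES arrays, up to 3 with members on both strands, those at the edge of the rule, up to 5 in exons, up to 5 on the NPC/Neu Ago array, and those beside marker genes. Members and lists were chosen with earlier results of these data known. Calculations were checked on artificial data. Alternatives covered the normexp offset, the processed signal, scaling, the detection flag, the fold limit and repeated regions.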

Additional observations from a re-analysis of the deposited data

How the results depend on the processing

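Of 48 recalculations of the main results 26 stayed within the limits set, 22 moved and 0 turned in sign. The median ES–ELA change (-0.38) was -0.62 with no offset, -1.03 with quantile-normalized processed signals and -0.99 with processed signals scaled to the 75th percentile. The median ELA–NPC change (-0.15) was -0.47 and -0.80 with these processed signals, and the NPC–NPC/Neu change (-0.08) was -0.23 with the quantile-normalized ones. Median Ago enrichment in ES cells (-0.25) was -0.38 with no offset, -0.66 and -1.22 with the processed signals and -0.00562 over members seen on both ES arrays. That 75th percentile scaling moved the median of all probes to -0.64, and members lay -0.59 from it. The negative share (69.8%) was 84.0% with that scaling, 72.2% with quantile normalization within each fraction, 51.1% over members seen on both ES arrays and, an alternative added after the data were seen, 73.8% over probes with at most 1 genome place.

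The 1518 members became 498 with a fall of at least 1 in log2 on the measured values, with no bound, and 994 counted once per region strand. The share lost by ELA (51.6%) was 43.4% with the less strict detection flag and 38.6% with a fall of at least 1. The F strand share (47.9%) was 42.0% with that fall and 50.5% once per region strand. The 176 members on the NPC/Neu Ago array became 407 with the less strict flag and 53 with that fall. For named regions, 103 of 228 recalculated Ago enrichments and 142 of 228 falls moved beyond the spot SD, by up to 2.38 and 1.93. The sign turned in 9 and 2 of them, all with a reported value nearer to 0 than 1, and for region 9 Ago enrichment went from -0.39 to 0.03 with quantile normalization within each fraction. In the chrX miRNA region all 7 probes kept an Ago–RNA rise of at least 1 in log2 at the ES–ELA step under each of the 7 normalizations tried. The cause of these shifts was not tested. No paired analysis was possible because each condition has 1 array. Leaving out a replicate could not be done for the same reason.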

Other observations

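The letters AGCACTT, the match to the seed of the ES cell miRNA miR-294, were found on the probe's own strand in 10 of 1518 lost probes (0.659%) and in 80 of 16181 regional probes (0.494%), and the median Ago enrichment of those 10 in ES cells was -0.26. A probe covers 60 bases of a longer transcript, so the absence of these letters says only that they are not in this window.

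Other region strands, all chosen after their values were seen, had probes that moved together. On R of chr7:48794017-48815817, 4 of the 5 probes seen in ES cells were lost, with falls of 2.99 to 4.22 in log2 and Ago enrichments of 0.61 to 1.62 in ES cells. On F of chr9:114412295-114418384, 2.01 kb from Trim71, 4 of 5 were lost, with Ago enrichments of 0.53 to 1.45 and small falls of 0.28 to 0.75, and Trim71 itself changed by -2.62. On R of chr16:3111550-3130500, 3 of 3 were lost, with Ago enrichments of -2.60 to -1.93, although its probes have up to 6 places in the genome.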
